A study of Mus musculus with 6 samples.

Results

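The miRNAs described here are mmu-miR-150-5p, mmu-miR-150-3p and mmu-miR-342-3p, taken by name from the count table, where they are 3 of 707 names. They were counted in small RNA libraries of exosomes, vesicles that cells release, from the supernatant of cultured bone marrow-derived macrophages. There were 3 Roquin-1 san:san and 3 WT samples, all of the C57BL/6 strain. Both genotypes were labelled as the same cell type, no treatment was named for either, and the age and sex of the mice were not given in the sources used here. Roquin-1 targets bound messenger RNAs for decay; san denotes its sanroque mutation. Separate mice or cultures are not named for the replicates, so the p-values describe only how these samples vary, and that variation may be technical.

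A miRNA is cut from a hairpin precursor, and the 2 arms of the hairpin (5p and 3p) can each give a mature strand. Its seed, bases 2 to 8, pairs with target messenger RNAs and largely sets which are repressed. miR-150 is abundant in mature B and T lymphocytes and other resting blood cells, and is known for repressing Myb, a transcription factor of early blood cells. miR-342 is encoded within Evl, a gene for an actin regulator, and is found in lymphocytes and in myeloid cells.

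The strands of the minor miR-150 arm and of both miR-342 arms are shown because the arm balance below rests on them. They are RefSeq sequences of the GRCm38.p6 build, written 5′ to 3′ with the seed in capitals.
mmu-miR-150-3p: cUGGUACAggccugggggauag
mmu-miR-342-3p: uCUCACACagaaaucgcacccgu
mmu-miR-342-5p: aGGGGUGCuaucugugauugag

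Of the 3 names, 2 had a RefSeq mature sequence, and mmu-miR-150-5p is named only. The number of other mature miRNAs in the RefSeq table with the seed of miR-342-3p was 0, and it was also 0 for miR-150-3p. These strands therefore formed no seed family within that table, which held 573 of the 707 names counted here. In GRCm38 the miR-150 hairpin is at chr7:45121757-45121821, and the GENCODE annotation lists no other gene there. The miR-342 hairpin is at chr12:108658620-108658718 and overlaps Evl but none of its exons, so it is intronic. The nearest other miRNA gene to the miR-150 hairpin is Mir5121, 5097 bases away, and miR-5121 had 16, 13 and 10 counts in san:san and 1, 8 and 4 in WT. The submitters' processing notes name mm9, and these GRCm38 positions were not taken from their reads.

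The san:san libraries held 126098 to 185901 miRNA counts, and the WT libraries 12447 to 28884. Every san:san library was deeper than every WT library, so depth and genotype cannot be told apart. A single count was worth 5.38 to 7.93 CPM, counts scaled to a common library total, in san:san and 34.6 to 80.3 CPM in WT. Myeloid miRNAs were present in every library, miR-223-3p with 749 to 1633 counts in san:san and 90 to 173 in WT. miR-511, whose hairpin lies in the macrophage mannose receptor gene, was at or near 0: its 3p arm had 1, 2 and 6 counts in san:san and 0 in each WT library, and its 5p arm had 0, 2 and 0 counts in san:san and 0 in each WT library.

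miR-150-5p and miR-342-3p were both higher in san:san exosomes, and the second arm of miR-150 was close to undetected in either genotype. Of the 3 names, 2 passed the count filter and the same 2 were called higher, beside a background in which 34.6% of 254 tested miRNAs were called higher, 29.5% lower and 64.2% in either direction. A miRNA was called where the quasi-likelihood test of edgeR, with TMM scaling and Benjamini-Hochberg adjustment over all 254, gave an adjusted p below 0.05. That is 88 higher and 75 lower, against 49 higher and 101 lower when total counts were used as library sizes. With so large a share of miRNAs called, a call alone does not set these miRNAs apart. The same may hold for a lack of overlap between genotypes, whose share over all tested miRNAs was not counted.

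miR-150-5p had 3578, 2787 and 1734 counts in the san:san libraries, against 59, 118 and 107 in the WT libraries. As a share of all counts this was 1.92%, 1.74% and 1.38% in san:san and 0.474%, 0.409% and 0.492% in WT. Every san:san library lay above every WT library, and no exact 95% binomial interval of a san:san share (1.31% at the lowest) reached one of a WT share (0.611% at the highest). The mean share was 1.68% ± 0.279 in san:san and 0.458% ± 0.0439 in WT (SD, n = 3 each), with p = 0.1 in a two-sided exact permutation test, the lowest value possible with 3 libraries a side. On the TMM-scaled scale, which divides each library by a factor set by the bulk of its miRNAs, miR-150-5p was at 20672 ± 2474 CPM in san:san and 3795 ± 433 CPM in WT. The fold change was 5.49 (log2 2.46 ± 0.21, SE, edgeR adjusted p = 3.54e-07). Its increase was the 9th largest among the 254 tested, but 44 tested miRNAs were lower in san:san by a larger factor, and by p it was 16th. In all, 4 tested names, itself and the 2 miR-486 names with the same reads included, had both a fold change and a san:san level at least as high.

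miR-342-3p had 2188, 1852 and 1337 counts in the san:san libraries, against 71, 120 and 90 in the WT libraries. Its shares were 1.18%, 1.15% and 1.06% in san:san and 0.570%, 0.415% and 0.414% in WT. The genotypes did not overlap here either, but they lay closer together than for miR-150-5p, with WT replicate 1 nearest to san:san. The mean share was 1.13% ± 0.0617 in san:san and 0.467% ± 0.0900 in WT (SD, n = 3 each; two-sided exact permutation p = 0.1, the smallest possible). In TMM-scaled CPM it was at 13972 ± 121 in san:san and 3888 ± 960 in WT. Its fold change was 3.66 (log2 1.87 ± 0.22, SE, edgeR adjusted p = 5.91e-06). That was the 23rd largest increase, with 53 tested miRNAs lower in san:san by a larger factor, and by p it was 32nd.

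**Figure D1:**
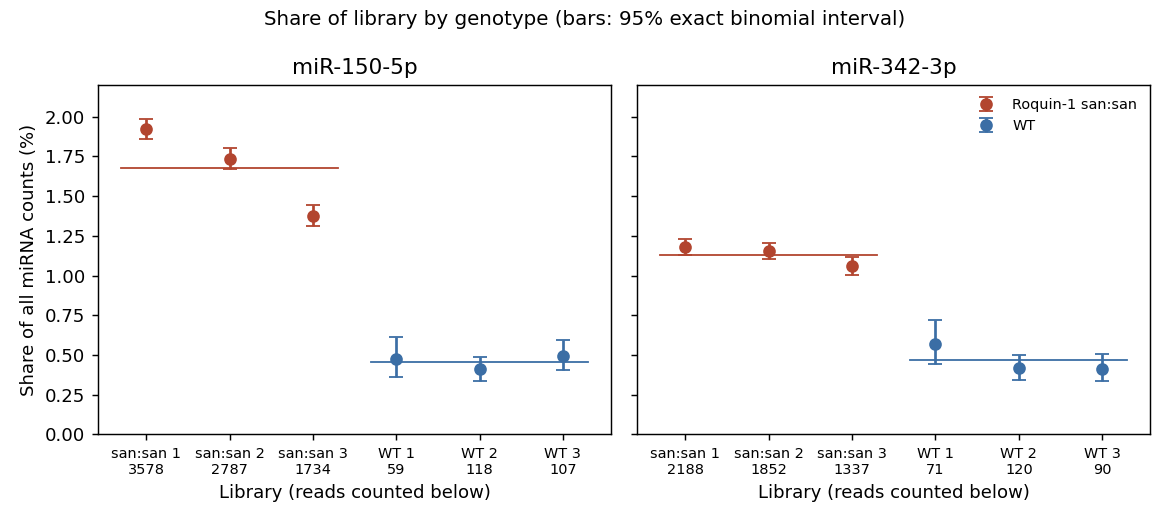
Share of all miRNA counts (percent) of miR-150-5p and miR-342-3p in each library, with the 3 Roquin-1 san:san libraries left of the 3 WT libraries. Points are libraries with their exact 95% binomial intervals (counting error only), horizontal lines are genotype means, and the counts stand under each library. For both miRNAs the 3 san:san libraries sit above the 3 WT libraries.

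The spread within a genotype depended on the scale. In san:san, the coefficient of variation of the share was 16.6% for miR-150-5p, against a mean counting error of 1.99%, and 5.46% for miR-342-3p, against 2.40%. In WT, it was 9.58% for miR-150-5p, against a counting error of 10.6%, and 19.3% for miR-342-3p, against 10.5%. In TMM-scaled CPM it was 12% in san:san and 11.4% in WT for miR-150-5p, and 0.867% in san:san and 24.7% in WT for miR-342-3p. On that scale the spread of miR-150-5p was alike in both genotypes, and that of miR-342-3p in san:san was below its counting error. Counting errors treat reads as independent molecules, which PCR copies are not.

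In order of abundance, miR-150-5p stood 14th, 15th and 15th in the san:san libraries, against 38th, 44th and 44th in the WT libraries. miR-342-3p stood 18th, 18th and 17th in san:san, against 35th, 42nd and 46th in WT. Both moved up the order in every san:san library relative to every WT library (mean difference in rank -27.3 and -23.3, two-sided exact permutation p = 0.1 for each, the smallest possible). By mean share in san:san, miR-150-5p lay between miR-23a-3p (1.78% ± 0.310) and miR-146a-5p (1.28% ± 0.203), and its range over libraries overlapped those of both. Within each san:san library, though, the order was the same. miR-23a-3p (2.04%, 1.87% and 1.43%) was above miR-150-5p, and miR-146a-5p (1.37%, 1.42% and 1.04%) below it. In the same genotype miR-342-3p lay between miR-146a-5p and let-7b-5p (1.12% ± 0.107), with overlap and an order that changed between libraries. In WT, miR-342-3p lay just below miR-378c (0.470% ± 0.233) and miR-150-5p just above miR-19b-3p (0.409% ± 0.184), with miR-142a-5p (0.466% ± 0.153) between the 2. In WT these 5 miRNAs did not separate beyond their spread. Together the 3 names made up 2.81% ± 0.340 of san:san counts and 0.926% ± 0.110 of WT counts (SD, n = 3 each; two-sided exact permutation p = 0.1).

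miR-150-3p, the minor arm of the miR-150 hairpin, had 1 count in WT replicate 2 and 0 counts in the other 5 libraries. It was too low to test. A count of 0 allows, at 3 counts, a share of up to 0.000635% over the 472587 counts of the san:san libraries. The single WT read is a share of 0.00159% of 63085 counts, with an exact 95% binomial interval of 4.01e-05% to 0.00883%. A difference between genotypes in this arm was not detectable at this depth.

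Arm balance does not depend on how libraries are scaled. The 3p arm was 0 of 8099 counts of both miR-150 arms in san:san, which allows a share of up to 0.0370%, and 1 of 285 counts in WT, or 0.351% (exact 95% binomial interval 0.00888% to 1.94%). Over samples the two-sided exact permutation test gave p = 1. For the miR-342 hairpin, miR-342-5p, the partner of miR-342-3p, had 8, 7 and 8 counts in san:san and 0 in every WT library. That is 0.426% of both arms in san:san (interval 0.270% to 0.638%) and 0 of 281 counts in WT, which allows up to 1.07%. The WT limit lies above the san:san share, so a difference in miR-342 arm balance was not detectable, although the per-library shares gave the smallest possible two-sided exact permutation p = 0.1.

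miR-150-5p and miR-342-3p were also set against each other within each library. The ratio of miR-150-5p to miR-342-3p was 1.64, 1.5 and 1.30 in the san:san libraries and 0.831, 0.983 and 1.19 in the WT libraries. miR-150-5p made up 62.1%, 60.1% and 56.5% of both in san:san and 45.4%, 49.6% and 54.3% in WT. The WT values rest on 130 to 238 counts and the san:san values on 3071 to 5766, so the WT intervals are wider, and that of WT replicate 3 (47.1% to 61.4%) also holds 2 of the san:san values. The genotypes did not overlap, although san:san replicate 3 and WT replicate 3 lay near each other. The log2 ratio averaged 0.56 ± 0.17 in san:san and -0.01 ± 0.26 in WT (SD, n = 3 each), a difference of 0.57 or 1.49-fold (two-sided exact permutation p = 0.1, the smallest possible).

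**Figure D2:**
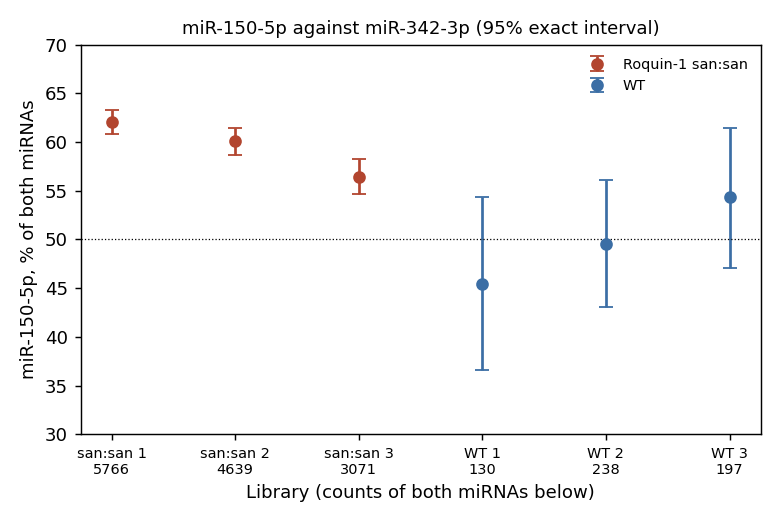
miR-150-5p counts as a percent of the summed counts of miR-150-5p and miR-342-3p in each library, san:san left of WT, with exact 95% binomial intervals and the summed counts under each library. The dotted line marks an even split. The san:san points lie at 56.5% to 62.1% and the WT points at 45.4% to 54.3%, with wider WT intervals from fewer counts.

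Ratios to other miRNAs of the same library, also need no scaling. miR-150-5p was set against 10 comparators. It was higher in every san:san library than in every WT library relative to 7 of them: miR-223-3p, miR-21a-5p and miR-146a-5p, all found in myeloid cells, miR-122-5p of liver, and the widely expressed miR-16-5p, miR-25-3p and let-7a-5p. Those 7 had log2 fold changes of 0.24 (let-7a-5p) to 1.15 (miR-21a-5p), and the other 3 had 2.17 to 2.65. The split thus largely follows the order of fold changes. How many other tested miRNAs separate in this way was not counted. The ratio of miR-150-5p to let-7a-5p was 0.354, 0.304 and 0.293 in san:san and 0.0620, 0.0707 and 0.0754 in WT, a 4.57-fold difference. Its ratio to miR-223-3p was 2.19, 2.0 and 2.32 in san:san and 0.656, 1.01 and 0.618 in WT, a 2.92-fold difference. Relative to miR-486a-5p, an erythroid miRNA, its ratio was 0.363, 0.317 and 0.230 in san:san and 0.407, 0.254 and 0.296 in WT, and the genotypes overlapped (log2 difference -0.07, two-sided exact permutation p = 0.8). Relative to miR-142a-3p, found throughout blood cells, its ratio was 0.433, 0.336 and 0.196 in san:san and 0.686, 0.333 and 0.235 in WT, again with overlap (log2 difference -0.30, exact permutation p = 0.7). The genotypes overlapped relative to the endothelial miR-126a-3p (0.25, exact permutation p = 0.6). The signs of these last 3 small differences turned when single libraries were left out.

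miR-342-3p was also higher relative to the same 7 comparators without overlap, by 1.64-fold over miR-21a-5p at the least and 3.07-fold over let-7a-5p at the most. It was lower relative to miR-486a-5p, at a ratio of 0.222, 0.210 and 0.178 in san:san and 0.490, 0.258 and 0.249 in WT (log2 difference -0.64), and overlapped relative to miR-142a-3p and miR-126a-3p. Over these 20 ratios no Benjamini-Hochberg adjusted value of the exact permutation tests was under 0.133, the smallest that this design gave.

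**Figure D3:**
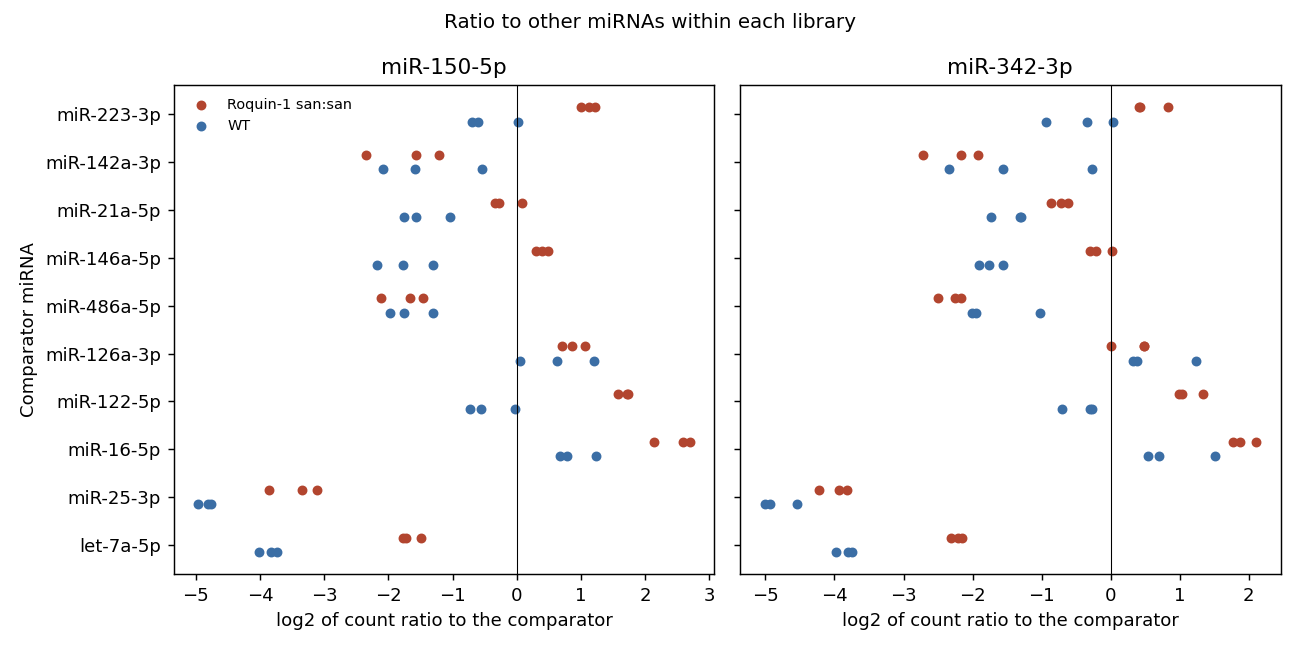
The log2 ratio of miR-150-5p (left panel) and miR-342-3p (right panel) to each of 10 comparator miRNAs, one point per library, with the san:san points drawn above the WT points in each row. The genotypes are apart for miR-223-3p, miR-21a-5p, miR-146a-5p, miR-122-5p, miR-16-5p, miR-25-3p and let-7a-5p in both panels, and overlap for miR-142a-3p and miR-126a-3p.

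Most other lymphocyte-associated miRNAs did not pass the test. A list of 20 names held 17 that are in the table and 11 that were tested, of which 4 were called higher, 0 lower and 7 did not pass. Over all tested miRNAs 34.6% were called higher, near the share of the list, 29.5% lower and 64.2% in either direction. The median log2 fold change of the 11 was 0.26, beside 0.30 for all tested miRNAs. Without the 3 names described here, 2 of 9 tested were called higher, 0 lower, and the median was 0.15. miR-181a-5p, a regulator of T cell receptor signalling, was at 1285 ± 170 CPM in san:san and 1086 ± 583 CPM in WT (SD, n = 3 each; log2 0.38 ± 0.30, edgeR adjusted p = 0.281). miR-181b-5p was at log2 -0.05 ± 0.40 (edgeR adjusted p = 0.918), and miR-155-5p, induced when lymphocytes and macrophages are activated, had 15, 13 and 3 counts in san:san and 1, 7 and 1 in WT and was too low to test. The values for miR-146a-5p (log2 0.26), miR-146b-5p (0.15), miR-29a-3p (-0.34), miR-29b-3p (0.01) and miR-28a-3p (-0.96) did not pass either. Without WT replicate 1, 6 of 12 tested were called higher, beside 30.7% of all tested in that fit, miR-181a-5p (log2 0.68, edgeR adjusted p = 0.0265) and miR-146a-5p (0.49, 0.0288) among them. Without WT replicate 2, 2 of 12 were, beside 23.8%. With total counts as the library sizes, 2 of the 11 were called higher and 3 lower, beside 19.3% higher and 39.8% lower of all tested: both miR-29 names and miR-28a-3p fell, while the 2 that rose were miR-150-5p and miR-342-3p. The number called lower was also 3 with limma on the scaled values, beside 37.4% of all tested. It was 2 with DESeq2 and with RLE factors, beside 32.3% and 33.9%. Library sizes without the 5 most abundant or without the erythroid names also gave 2, beside 33.5% and 37.4%.

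The other 2 called higher, which are the 2 of 9 above, had few reads. Their WT counts alone would not have passed the count filter. They entered the test through the san:san libraries, where they are high, so their calls are no evidence about the list. Each was tested under 14 of the 17 alternatives, and not where a san:san library was left out. miR-363-3p, of the miR-106a-363 cluster, had 25, 23 and 30 counts in san:san and 1, 0 and 2 in WT (log2 2.37 ± 0.81, SE, edgeR adjusted p = 0.0199). miR-28a-5p, a miRNA that restrains germinal-centre B cells, had 44, 43 and 18 counts in san:san and 2, 3 and 0 in WT (log2 2.02 ± 0.70, edgeR adjusted p = 0.0215). Its value is uncertain because miR-28c had nearly the same counts, 44, 41 and 18 in san:san and 2, 3 and 0 in WT. Both calls ended with DESeq2 (adjusted p = 0.0520 and 0.0502) and with total counts (0.0816 and 0.107), and both ended without WT replicate 2 (0.170 and 0.0910). Limma on the scaled values and library sizes without the erythroid names ended both as well. The call of miR-28a-5p also ended without WT replicate 3 (0.0868).

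**Figure D4:**
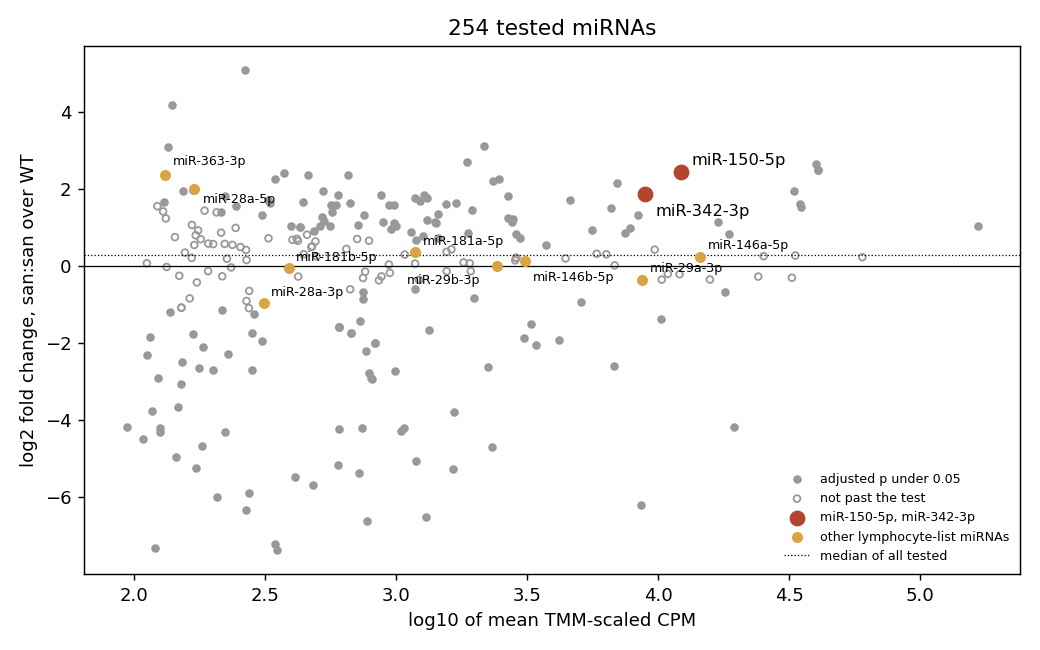
Each point is 1 of the 254 tested miRNAs, by the log10 of its mean TMM-scaled CPM and its log2 fold change of san:san over WT. Filled grey points passed the test and open ones did not, large red points are miR-150-5p and miR-342-3p, smaller yellow points are the other tested lymphocyte-list miRNAs, and the dotted line is the median of 0.30. Of the yellow points, miR-363-3p and miR-28a-5p passed the test and the other 7 did not.

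Marker lists of other cell types differed in how they compared between genotypes. The 5 erythroid names summed to 15.6% to 17.9% of counts in san:san and 3.84% to 6.25% in WT, and miR-486a-5p and miR-486b-5p in it hold the same reads. Of these 5 names, 4 were called higher, beside 34.6% of all tested. The 8 macrophage and myeloid names summed to 9.21% to 10.9% in san:san and 4.80% to 5.62% in WT. Of the 5 tested, 4 were called higher, beside 34.6% of all tested. With total counts it was 2 of the 5, beside 19.3%, and with limma on the scaled values also 2, beside 17.3%. miR-142a-3p, singled out after its values were seen, held most of the gap between the sums: the other 7 names summed to 3.91% to 4.97% in san:san and 3.41% to 4.92% in WT, with overlap. The tested name with the largest increase was taken out, so this overlap is no test of the others. In the main fit miR-223-3p (log2 0.87), miR-142a-5p (0.96) and miR-21a-5p (1.15) were still called higher, and miR-146a-5p (0.26) was not. The 2 endothelial names summed to 3.37% to 6.96% in san:san and 1.82% to 3.69% in WT, with overlap. Both were called higher, beside 34.6% of all tested, but only 1 of them with limma on the scaled values, beside 17.3%. The 6 lymphocyte markers, most of whose reads are those of miR-150-5p and miR-342-3p, summed to 2.58% to 3.23% in san:san and 0.987% to 1.33% in WT. The 5 stromal names summed to 0.741% to 0.833% in san:san and 0.844% to 1.32% in WT. Of the 5, 1 was called higher and 1 lower, beside 34.6% and 29.5% of all tested. The higher call ended with DESeq2, RLE factors and total counts, among others, and none of the 5 was called without WT replicate 2. The summed shares of the 2 liver names overlapped, with 0.439% to 0.60% in san:san and 0.501% to 0.707% in WT. Most of these reads were miR-122-5p, which did not pass (log2 0.33). miR-122-3p was called higher (log2 3.10, edgeR adjusted p = 0.00275), with 33, 32 and 25 counts in san:san and 1, 1 and 0 in WT. It entered the test through the san:san libraries, so its call is no evidence about the list. None of these lists had a member at 0 in all 6 libraries. The part of these marker lists in the difference of miR-150-5p and miR-342-3p was not tested. In such bulk libraries, fewer source cells of a type and less of a miRNA per cell cannot be told apart.

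The miRNAs most like each member over the 6 libraries were found by the root mean square distance between log2 CPM profiles, each centred on its own mean. For miR-150-5p they were miR-409-3p (distance 0.19), miR-18a-3p (0.25), miR-127-3p (0.27) and the 2 miR-486 names (0.28 each), against a median distance of 1.15 to all others, and miR-342-3p came 6th at 0.34. For miR-342-3p they were miR-505-3p (0.12), miR-151-5p (0.13), miR-487b-3p (0.18), miR-127-3p (0.20) and miR-326-3p (0.20), against a median of 0.94, and miR-150-5p came 12th. The log2 fold changes of these names lay between 1.78 and 2.50. A small count was added before taking logs, which shrinks the profiles of names with few WT reads. miR-127-3p had 4, 7 and 5 counts in WT and miR-18a-3p 2, 3 and 4, so their distances are less certain. Of the 5 with a position in the annotation, miR-127-3p and miR-409-3p are encoded on chromosome 12 like miR-342, 934 and 1085 kb from its hairpin in GRCm38, and miR-326-3p on chromosome 7 like miR-150, 54431 kb away. miR-18a-3p is encoded on chromosome 14 and miR-505-3p on X. The other nearest names were not placed, and whether likeness of profile goes with position was not tested.

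The size of both fold changes depended on library scaling by a shift shared with all tested miRNAs. The median log2 fold change of the 254 was 0.30 with TMM and -0.29 with total counts. miR-150-5p lay 2.16 above that median with TMM and 2.17 with total counts, and miR-342-3p 1.58 and 1.59. Under all 17 alternatives both stayed called higher, between 3.68-fold and 6.13-fold for miR-150-5p and between 2.45-fold and 4.08-fold for miR-342-3p, with edgeR, DESeq2 or limma adjusted p of at most 1.19e-04 and 5.94e-04. Of these, 1 refitted reads recovered from the scaled values, which differ from the count table for 1 value. It was bound to repeat the main fit and adds no support.

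**Figure D5:**
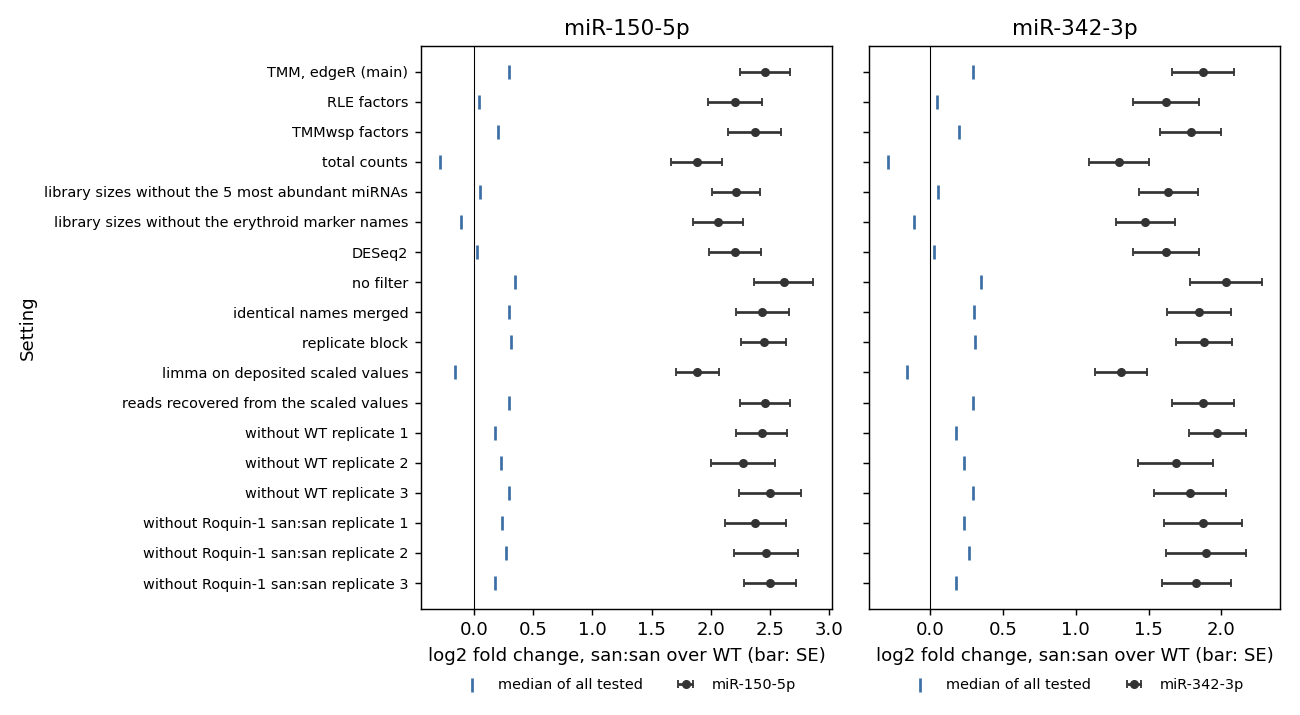
Log2 fold change of san:san over WT for miR-150-5p and miR-342-3p under each setting, with SE as bars, beside the median of all tested miRNAs under the same setting (blue ticks). All points of both miRNAs lie to the right of 0 and of the median, and the median moves from 0.30 with TMM to -0.29 with total counts.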

How the data were processed

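Small RNA libraries of macrophage exosomes were made by a standard Illumina procedure, and an Illumina RNA kit is also named, per the labels' protocols. Per the submitters' processing notes, mm9 was the build. The aligner, trimming and miRNA annotation were not given in the sources used here. Per miRNA and library, the authors deposited whole-number counts and, for each sample, a scaled signal headed tpm that sums to between 1056890 and 1082573. In that signal 100% of values were whole reads within 0.1 reads, and the recovered reads differed from the count table for 1 value. The number of columns from other samples was 0.

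Counts of the 6 libraries were fitted with edgeR 4.0.16 (quasi-likelihood test, R 4.3.3), filterByExpr at a minimum count of 10, TMM scaling and genotype as the only term, which left 254 miRNAs. These held 98.2% to 99.3% of each library's counts. Shares, ranks and ratios were compared by exact permutation tests (scipy 1.17.1), and intervals are exact Clopper-Pearson at 95%. Only the edgeR fit was tried on simulated counts, with as many names raised as lowered and the same spread for every name. The shares, ranks and ratios were not simulated, nor was a shift of the median with scaling. Alternatives used DESeq2 1.42.0, limma 3.58.1 with a pseudocount of 10, other scalings and left-out libraries. Replicates of 1 genotype differed by more than sampling noise (chi-square per degree of freedom 3.78 to 22.3), so each counted once. The miRNAs and lists were chosen with earlier results of these data known. Named miRNAs are the 3 members and partner arm, the lymphocyte list, the comparators, the cell markers, the neighbours in rank and the 5 nearest profiles of each abundant member. miR-28c and miR-378c followed from these values.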

Additional observations from a re-analysis of the deposited data

How the results depend on the processing

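Of 256 recomputed values, 249 were counted as unchanged, but for many of them little could change. The exact permutation tests cannot go below 0.1 here, so for shares, ranks, arms and ratios only a reversed direction counted. The numbers of miRNAs called have no direction: a fall from 88 to 60 higher was not counted as a change, and one to 49 was. The number of miRNAs called higher was 88, but 49 with total counts and 44 with limma on the deposited scaled values. Those called lower ranged from 62 of 199 tested (31.2%), without san:san replicate 1 or 2, to 105 of 707 (14.9%) with no filter. With the filter their share ran from 22.4% without WT replicate 2 to 39.8% with total counts. Counting reads recovered from the scaled values, the same reads but for 1 value, gave the same 88 higher and 75 lower. Scalings moved the split: RLE factors gave 76 higher and 86 lower, total counts 49 and 101, and library sizes without the erythroid names 60 and 95. DESeq2, which changes the test as well as the scaling, gave 64 and 82. Leaving out 1 library at a time gave log2 2.27 to 2.50 for miR-150-5p and 1.69 to 1.97 for miR-342-3p. Ratios with small differences turned: the log2 difference of miR-150-5p to miR-142a-3p ran from -0.64 to 0.13 over the left-out libraries, to miR-486a-5p from -0.22 to 0.12, both turning positive without san:san replicate 3 or WT replicate 1, and to miR-126a-3p from -0.041 (without WT replicate 1) to 0.54. The cause was not tested. The replicate numbers showed no clear pairing of the samples, which was not tested. Correlations of same-numbered deviations were 0.103, -0.0795 and 0.258, against -0.212 to 0.154 for the other pairs. The fit with the replicate number as a block gave log2 2.45 for miR-150-5p and 1.88 for miR-342-3p, with 90 higher and 71 lower. miR-150-3p could not be fitted except with no filter, where it did not pass (adjusted p = 0.275). Depth limits the minor arms most, since the WT libraries held 12447 to 28884 counts.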
